A study of Drosophila melanogaster with 4 samples.

Results

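The 5 genes described here, apolpp, AcCoAS, AdipoR, Adh and Amyrel, encode a lipid carrier, an enzyme that makes acetyl-CoA, a receptor of the adiponectin receptor family, alcohol dehydrogenase and a relative of amylase. They were chosen by name from the platform annotation, 5 of 6793 genes that the annotation gives to at least 1 clone. Earlier results of these data were known when the choice was made. They were represented by 7 spotted cDNA clones of 13824 on the array. A value was left after the authors' spot filters for 6 of the 7 clones, and all 6 were measured on at least 3 arrays. The remaining clone, the other Adh clone, had no value on any array.

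RNA came from whole heads of unmated Oregon-R wild type males. The flies, 10 to 11 days old, spent 3 days in vials of 30 on food with ethosuximide (ETH) at 3.48 mg/ml or, as the control, on normal food (NF). Ethosuximide is a drug against absence seizures that acts on T-type calcium channels. Each of 4 arrays carried its own pool of ETH heads in one dye and its own pool of NF heads in the other, so each array was 1 biological replicate. The ETH sample carried Cy5 on arrays 1 and 2 and Cy3 on arrays 3 and 4.

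The fat body is the fly's counterpart of liver and adipose tissue, and some of it lies in the head around the brain. It stores fat, takes sugars and alcohols into metabolism and sends lipid to other organs on lipophorin particles, which the apolpp protein holds together. Ethanol is oxidised by Adh to acetaldehyde, which is oxidised further to acetate. AcCoAS joins acetate to coenzyme A, and the acetyl-CoA formed can enter fatty acid synthesis or the citrate cycle. In bulk heads, fewer fat body cells and less RNA per cell cannot be told apart. Of 30 fat body markers, 15 were on the array, 11 had a value on at least 1 array and 2 were measured on at least 3 arrays, apolpp itself and Cyp4d21 (also called sxe1). The label of fat body genes therefore could not be checked beyond this, and which cells of the head gave the signal was not tested.

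The files give ratios and no level of either group. Ratios are on the log2 scale, ETH over NF, with the log base assumed. The values were read as Cy5 over Cy3 with the sign turned on arrays 3 and 4. Which dye is the numerator is not stated, and the direction is therefore unsettled. If it were Cy3, every sign would be the opposite. If the swapped columns had been turned before deposit, the values given below as the other reading would apply. Over the 980 tested clones the turned columns had medians of 0.74, 0.16, -0.24 and -0.63 on arrays 1 to 4, and each array was centred on its own median. A centred ratio is therefore relative to the typical clone of that array. Over the tested clones, centred ratios correlated at 0.52 between arrays 1 and 2 and at 0.42 between arrays 3 and 4. Arrays 1 and 3, 1 and 4, 2 and 3, and 2 and 4 correlated at 0.24, 0.15, 0.11 and 0.05. With no sign turned, these correlations across dye orientations would be below 0. How they bear on the reading was not tested. After the spot filters 5095, 3169, 1101 and 812 clones had a value on arrays 1 to 4. Of all clones with a value, 5.77% had one on every array, and 4 of the 6 measured member clones did.

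None of the 5 genes passed the test for a difference between ETH and NF heads. Limma's adjusted p was at least 0.631 for each of the 6 clones, and 0 of the 6 passed, beside 1.43% of the 980 tested clones. Nor did any of the 6 have an unadjusted p under 0.05, as 12.1% of the tested clones had. Their mean log2 ratios lay between 0.07 and 0.20, and each 95% interval held 0. For the 4 clones measured on every array the intervals reached from 0.861-fold to 1.49-fold at their widest. These intervals are moderated, which means that limma draws the spread of each clone toward that of all tested clones. For a clone with a wide spread, such as Adh, they are narrower than its own spread would give. The unadjusted p of Adh was 0.334 in limma with moderation and 0.506 without. Changes beyond these bounds are therefore not excluded. No member clone kept 1 sign over all arrays with a value for it, while 31.2% of the tested clones did. All 6 means were above 0, against 51.4% of the tested clones' means. With 4 arrays an exact sign-turning permutation test cannot give a p below 0.125, and with 3 arrays not below 0.25.

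**Figure D1:**
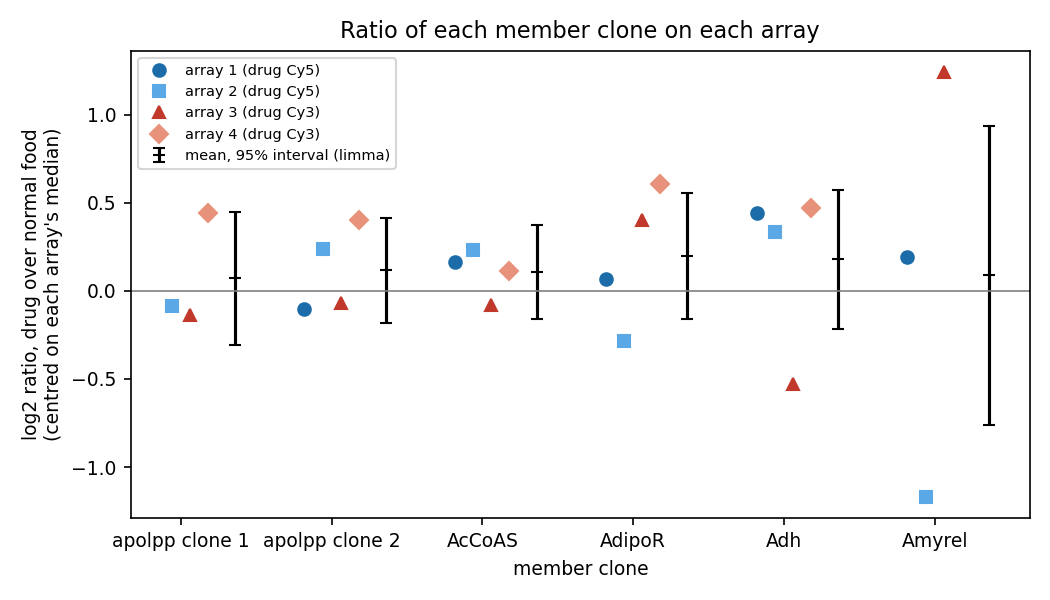
Centred log2 ratio of ETH over NF (vertical axis) for each member clone on each array, with the mean and limma's 95% interval in black. Every clone has arrays on both sides of 0. AcCoAS has the narrowest range over arrays, 0.31, and Amyrel the widest, 2.41.

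The apolipophorin gene apolpp encodes the precursor that is cut into the structural proteins of lipophorin. Its first clone had ratios of -0.09, -0.14 and 0.44 on arrays 2, 3 and 4 and no value on array 1. Its second clone had -0.11, 0.24, -0.07 and 0.40 on arrays 1 to 4. Both clones were highest on array 4 and below 0 on array 3, while on array 2 they lay on opposite sides of 0. The clones differed by -0.33, -0.07 and 0.04 (first minus second) on arrays 2, 3 and 4. Their mean ratios were 0.07 ± 0.32 (SD, n = 3; limma adjusted p = 0.907) and 0.12 ± 0.25 (SD, n = 4; limma adjusted p = 0.775). Averaged per array, the clones gave a mean of 0.07 ± 0.25 (SD, n = 4), or 1.05-fold, with a 95% interval of -0.22 to 0.37. Without array 4 the mean lay below 0, at -0.04.

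AcCoAS, acetyl-CoA synthetase, was the most even member over arrays. Its ratios were 0.16, 0.23, -0.08 and 0.11 on arrays 1 to 4. Array 3 alone lay below 0. The mean was 0.11 ± 0.13 (SD, n = 4; limma adjusted p = 0.771), with a 95% interval of 0.895-fold to 1.29-fold. Of the tested clones 83.1% had a larger SD over arrays than this clone. AcCoAS averaged 0.20 on the arrays with ETH in Cy5 and 0.02 on those with ETH in Cy3, a dye effect of 0.09 that did not pass (limma adjusted p = 0.734).

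AdipoR belongs to the family of membrane receptors that bind adiponectin in mammals, and in flies it is known for a role in insulin release. Its ratios were 0.06 and -0.28 on arrays 1 and 2, and 0.40 and 0.61 on arrays 3 and 4. The arrays with ETH in Cy3 were thus both above those with ETH in Cy5. The mean was 0.20 ± 0.39 (SD, n = 4; limma adjusted p = 0.631), the highest of the member clones, and 37.2% of the tested clones had a mean farther from 0. The dye effect, the deviation of the ETH-in-Cy5 arrays from the mean of both orientations, was -0.31, with a 95% interval of -0.56 to -0.05. Its unadjusted p was 0.0233 and its limma adjusted p 0.272, so it did not pass. For the dye 14.1% of the tested clones had an unadjusted p under 0.05, and 0.204% passed.

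Adh, alcohol dehydrogenase, oxidises ethanol and other alcohols. The measured Adh clone had ratios of 0.44, 0.33, -0.53 and 0.47 on arrays 1 to 4. Arrays 1, 2 and 4 lay close together above 0 and array 3 lay apart below 0. The mean was 0.18 ± 0.47 (SD, n = 4; limma adjusted p = 0.712), with a moderated 95% interval of 0.861-fold to 1.49-fold. Without array 3 the mean was 0.41 ± 0.07 (SD, n = 3), with an unadjusted p of 0.00993 and a limma adjusted p of 0.221, so the clone did not pass over all clones on the other arrays either. On array 3 the duplicate spots of the clone differed by 0.051, less than the median difference of 0.145 between duplicates of tested clones on that array.

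Amyrel encodes a relative of alpha-amylase, the secreted enzyme that cuts starch. Its ratios were 0.19, -1.17 and 1.24 on arrays 1, 2 and 3, and it had no value on array 4. Arrays 2 and 3 lay far from 0 on opposite sides. The mean was 0.09 ± 1.21 (SD, n = 3; limma adjusted p = 0.946), with a moderated 95% interval of 0.591-fold to 1.91-fold. That interval is narrower than the clone's own spread would give. In limma the clone had an unadjusted p of 0.816 for the drug with moderation and 0.910 without. Its SD was the fifth highest of the 980 tested clones, and 0.408% of them had a larger one. Duplicate spots differed by 0.037, 0.077 and 0.38 on arrays 1, 2 and 3. The difference on array 3 was the largest of any member clone on any array, and the median over tested clones on array 3 was 0.145. Leaving out array 3 gave -0.49 and leaving out array 2 gave 0.72. The dye effect of Amyrel was -0.86 (95% interval -1.44 to -0.29), with an unadjusted p of 0.00876 and a limma adjusted p of 0.191. It passed under 4 of the alternatives, among them when the arrays were centred on all their clones (-0.80, limma adjusted p = 0.000272) or on the clones measured on every array (-0.91, limma adjusted p = 0.0104). Without moderation, with the clone's own spread alone, its unadjusted p was 0.381 and its adjusted p 0.761. Array 3 was the only array with ETH in Cy3 that measured Amyrel, so its dye effect and the value of that array cannot be told apart. For the same reason the mean of 0.09 gives unequal weight to the dye orientations. With a dye coefficient in the fit, the drug estimate of Amyrel was 0.38.

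**Figure D2:**
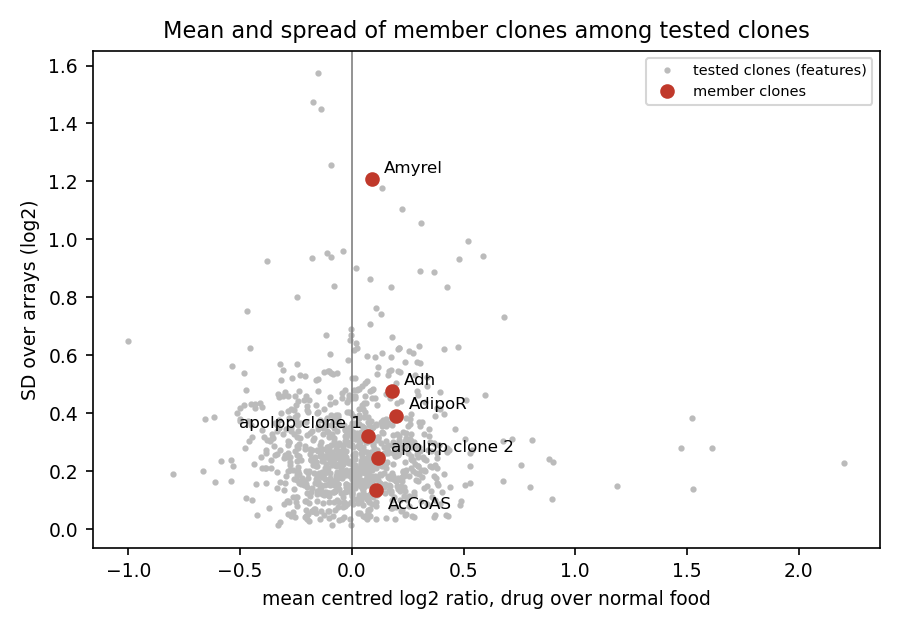
Mean centred log2 ratio of ETH over NF (horizontal axis) against the SD over arrays (vertical axis), with member clones in red and the 980 tested clones in grey. The member means lie between 0.07 and 0.20, while their SDs run from 0.13 for AcCoAS to 1.21 for Amyrel.

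The other reading, in which all 4 columns are already ETH over NF, changed the sign of 4 of the 6 clones. AcCoAS and Adh stayed above 0, at 0.09 and 0.21. The apolpp clones were then at -0.13 and -0.05, and AdipoR was at -0.31 ± 0.28 (SD, n = 4; limma adjusted p = 0.609). Amyrel was at -0.74 ± 0.81 (SD, n = 3), with an unadjusted p of 0.0298 and a limma adjusted p of 0.531. It was the member whose ratio depended most on the reading. For a clone measured on all 4 arrays, the mean under the other reading is the same number as its dye effect. The other reading and the dye effect are therefore not separate results for such a clone. Under this reading 0 tested clones passed limma's test, although 8.78% of them were under 0.05 before adjustment, and 0 of the 6 member clones passed.

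**Figure D3:**
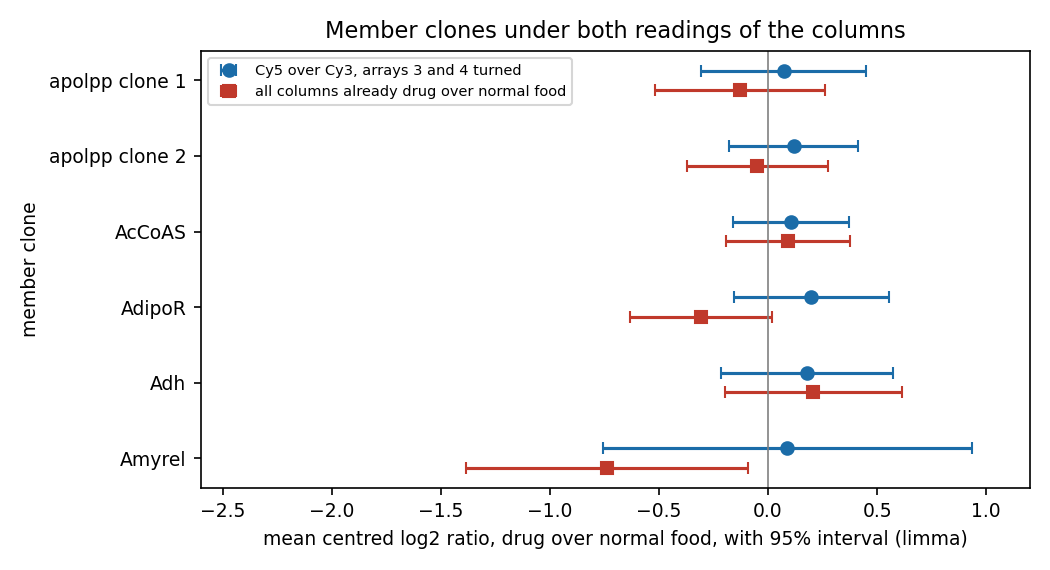
Mean centred log2 ratio of ETH over NF (horizontal axis) of each member clone with limma's 95% interval, under the reading used here (blue circles) and under the other reading (red squares). AcCoAS and Adh keep their sign, and the interval of Amyrel lies below 0 under the other reading.

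Before centring, both apolpp clones and the AcCoAS and Adh clones had deposited values above 0 on every array that measured them. This was so for 51.9% of the tested clones, and every deposited column had a median above 0. With no centring the turned means were -0.17 for the first apolpp clone, 0.12 for the second, 0.11 for AcCoAS, 0.20 for AdipoR, 0.19 for Adh and 0.31 for Amyrel. The limma adjusted p was then 0.994 for each, and 0.51% of the tested clones passed. The first apolpp clone, which lacks a value on array 1, then lay below 0, and the Amyrel clone, which lacks one on array 4, lay farther above it.

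From array to array the members took different signs. On array 4 all 4 measured member genes were above 0, from 0.11 to 0.61. On array 3 AdipoR and Amyrel were above 0 and apolpp, AcCoAS and Adh below, and the values ran from -0.53 for Adh to 1.24 for Amyrel. AcCoAS and Adh were on the same side of 0 on every array, above it on arrays 1, 2 and 4 and below it on array 3. AdipoR and Amyrel also shared their signs on arrays 1 to 3, with array 2 the lowest and array 3 the highest of these for both. These likenesses were seen in the data and rest on single arrays, so they are given with no test. Of the 10 pairs of member genes, in 0 did one gene have the higher ratio on every array that measured both. The widest difference between Adh and AdipoR was on array 3, where AdipoR exceeded Adh by 0.93.

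Patterns nearest to each member were sought among clones with a gene name measured on the same arrays, by the root mean square difference of centred ratios. Clones chosen this way lie below the median distance by construction and tend to share the member's signs. Their likeness is therefore a description and no evidence of a link. For the second apolpp clone they were P5CDh1, Hcf and TP53INP, at 0.084, 0.126 and 0.13 over 4 arrays, against a median of 0.365 over 183 candidates. For the first apolpp clone they were CG2082, ND-51 and Fim, at 0.088, 0.093 and 0.137 over 3 arrays. AcCoAS lay nearest to CG31781, Sap47 and a clone of RpS15Ab, at 0.097, 0.1 and 0.106. The clones nearest to AdipoR were another clone of RpS15Ab, ND-15 and Cyp28d1, at 0.127, 0.22 and 0.221. Adh lay nearest to CG7920, CG8778 and Pal2, at 0.131, 0.198 and 0.205, all with array 3 below 0 and the other arrays above it. For Amyrel the nearest were link, mei-9 and eIF6, at 0.222, 0.261 and 0.329 over 3 arrays, against a median of 0.975 over 237 candidates.

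To place the members in their pathways, 6 lists of lipid, alcohol and sugar metabolism and its hormonal control were described, 161 genes in all. Of these 88 were on the array, 56 had a value and 19 were measured on at least 3 arrays, the 5 members among them. None of the 19 passed the test, beside 2.14% of the 515 tested genes. Their median log2 ratio was 0.09, beside 0.02 for all tested genes. An unadjusted p under 0.05 was reached by 5 of the 19 genes, 4 above 0 and 1 below, beside 13.6% of all tested genes. This count depended on single arrays and on the reading. It was 1 without array 1, 1 without array 2, 2 without array 3 and 3 without array 4, 1 under the other reading and 0 with no centring. The share of all tested genes also changed, to 7.96%, 9.32%, 14.8% and 14.2% with arrays 1 to 4 left out in turn. That share was 8.35% under the other reading and 2.91% with no centring. None of the 5 members kept 1 sign over all their arrays, while 9 of the 14 other list genes did, beside 32.2% of all tested genes. Leaving the members out makes the share of the lists higher. The difference between the lists and all tested genes was not tested, and neither figure was split by how many arrays measured the gene.

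Among 3 tested genes of acetyl-CoA use and fatty acid synthesis, FASN1, a fatty acid synthase, had ratios of 0.40, 0.48 and 0.31 on arrays 2, 3 and 4. Its mean was 0.40 ± 0.09 (SD, n = 3; limma adjusted p = 0.265), and -0.13 under the other reading. The list median was 0.11, and all 3 means were above 0. Of 3 tested genes of adiponectin-type, insulin and adipokinetic signalling, S6k and Hnf4 had 1 sign throughout. S6k, the kinase that phosphorylates ribosomal protein S6, was at -0.37 ± 0.07 (SD, n = 3; limma adjusted p = 0.297). Hnf4, a nuclear receptor that in flies is known for inducing fat breakdown in starvation, was at 0.30 ± 0.17 (SD, n = 4; limma adjusted p = 0.309). Under the other reading they were at -0.09 and 0.03.

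Of 4 tested genes of alcohol and aldehyde metabolism, Sodh1, a sorbitol dehydrogenase, had ratios of 0.24, 0.20, 0.20 and 0.31 on arrays 1 to 4, with a mean of 0.24 ± 0.05 (SD, n = 4; limma adjusted p = 0.344). Pdh, the photoreceptor dehydrogenase, was at -0.20 ± 0.15 (SD, n = 3; limma adjusted p = 0.534). The list median was 0.08, with 2 means above 0 and 2 below. Of 4 tested genes of starch, glycogen and trehalose metabolism, UGP, which makes UDP-glucose for glycogen and trehalose, had ratios of 0.26, 0.33, 0.20 and 0.29. These are averages per array over the clones of UGP. Their mean was 0.27 ± 0.05 (SD, n = 4; limma adjusted p = 0.309), with the value of array 3 the lowest, unlike Amyrel, whose highest value was on that array. A UGP clone measured on all 4 arrays varied more by itself, at 0.33 ± 0.20 (SD, n = 4; limma adjusted p = 0.337). Treh, the trehalase, was at -0.17 ± 0.07 (SD, n = 3) and Hex-A, a hexokinase, at -0.06 ± 0.03 (SD, n = 3), with limma adjusted p of 0.598 and 0.883. The median of this list was 0.02, also with 2 means above 0 and 2 below. Under the other reading Sodh1 was at -0.02 and UGP at 0.02, near 0.

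Of 4 tested genes of lipoproteins and lipid transport, LpR1, a lipophorin receptor, was at 0.21 ± 0.17 (SD, n = 3; limma adjusted p = 0.534), above 0 on each of its arrays, and at -0.05 under the other reading. The list median was 0.06, with 3 means above 0 and 1 below. Npc2b was the gene below 0, at -0.25 ± 0.38 (SD, n = 3; limma adjusted p = 0.565), and at 0.15 under the other reading. In fatty acid oxidation yip2, a thiolase named here after its value was seen, was the one tested gene, at 0.11 ± 0.18 (SD, n = 3; limma adjusted p = 0.807).

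**Figure D4:**
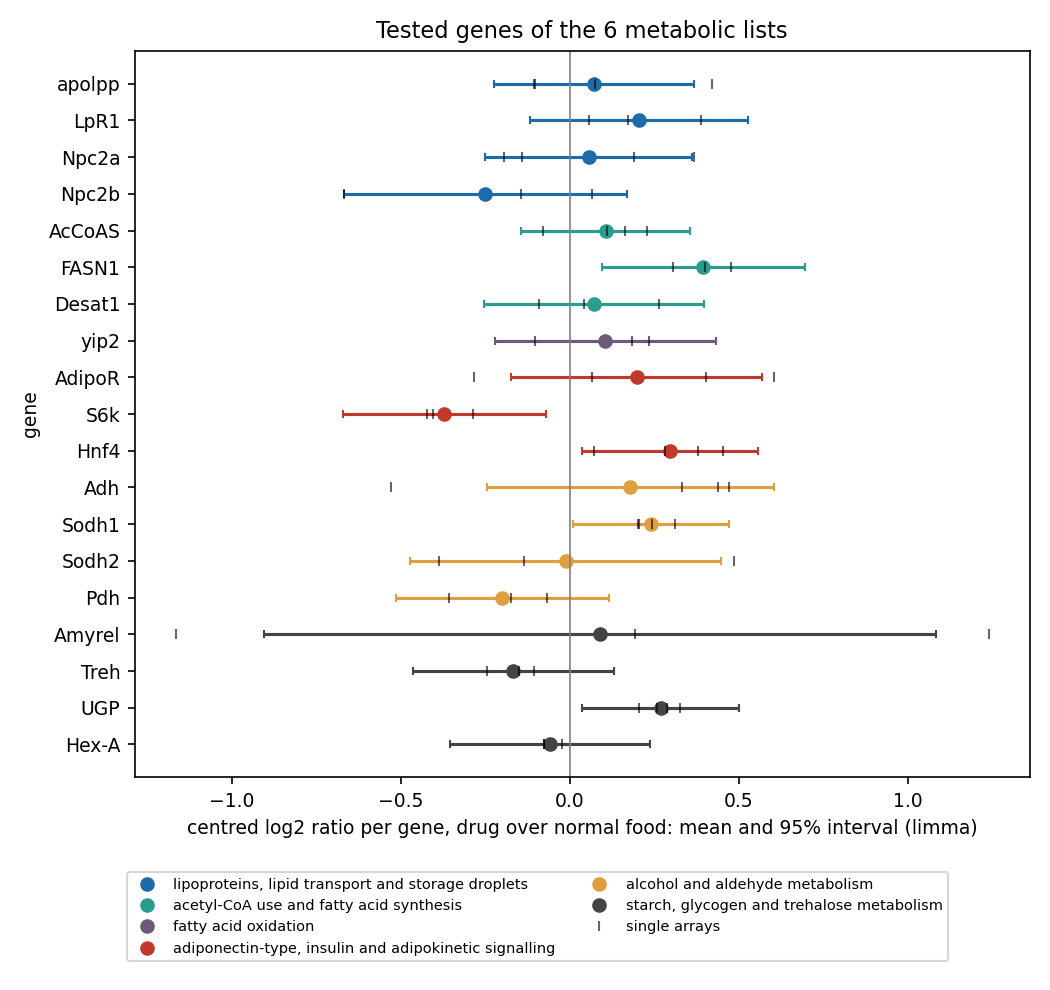
Centred log2 ratio of ETH over NF (horizontal axis) for the 19 tested genes of the 6 metabolic lists, with the mean, limma's 95% interval and single arrays as ticks. FASN1, Hnf4, Sodh1 and UGP have intervals above 0 and S6k one below 0, and none passed after adjustment over 515 genes.

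Markers of other cell types in the head were measured alongside. None of 7 photoreceptor, 4 neuron, 1 glia, 3 muscle and 1 gut or male reproductive tissue genes tested passed. Their medians were -0.28, 0.05, -0.35, -0.21 and 0.44, and under the other reading 0.10, 0.05, -0.16, 0.24 and -0.06. For photoreceptors 1 of 7 means was above 0, and 6 of 7 under the other reading. For muscle 0 of 3 were above 0, and 3 of 3 under the other reading. Of all tested genes 53.6% had a mean above 0, and 41.9% under the other reading. The photoreceptor means ran from -0.45 to 0.26, those of neurons from -0.11 to 0.17 and those of muscle from -0.43 to -0.13. The single glia gene was Gs2, the glutamine synthetase, and the single gut or reproductive gene was ocn. The 2 tested fat body markers, apolpp and Cyp4d21, had a median of -0.008, and of -0.06 under the other reading. Cyp4d21 was at -0.09 ± 0.61 (SD, n = 4; limma adjusted p = 0.911), from 0.62 on array 1 to -0.87 on array 2. Pdh, in the alcohol and aldehyde list, was also among the photoreceptor markers. Their part in the members' ratios was not tested.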

How the data were processed

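The deposited values, taken as log2 ratios of both dyes per spot, were ratio normalized by the authors in Acuity 4.0 after GenePix Pro 6.0 quantification, per the series' design text. That text also names spot filters on intensity, saturation, uniformity and signal-to-noise. Nothing in the labels gives the log base, numerator or centring, and the scanner output was not used here.

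Neighbouring spots of a clone were averaged. Values were read as Cy5 over Cy3, the order of the channels in the labels. The sign was turned on arrays 3 and 4, and each array was centred on its median over the tested clones. The 980 clones measured on at least 3 arrays entered a one-class test against 0 (limma 3.58.1, R 4.3.3, moderated with eBayes, two-sided, Benjamini-Hochberg over all tested clones, threshold 0.05). For list genes, clones were averaged per gene and 515 genes were fitted in the same way. A further limma fit held a dye coefficient beside the drug. Without that coefficient, a mean over 3 arrays gives unequal weight to the dye orientations, so a dye effect can enter it. The fits were tested on simulated data. Gene names came from the platform annotation, updated through the Entrez number in RefSeq's Release 6 table, and 8 names of the metabolic lists had no match there.

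The members and lists were chosen with earlier results of these data known. Every member clone was described. Of each metabolic list the text names the genes that passed and then, up to 4 a list, those with the largest mean of 1 sign on every array that measured them. For each member clone it names the 3 clones nearest in pattern, and of each marker list at most the 3 genes with values on most arrays. Other names were chosen after their values were seen. The alternatives concerned centring, the reading of the columns, the dye term, moderation, the number of arrays, the duplicate spots and each array left out. The number of arrays limits the precision.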

Additional observations from a re-analysis of the deposited data

Results flagged for a closer look

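The measured Adh clone had an array far from the others. Its centred log2 ratio was -0.53 on array 3, against 0.33 to 0.47 on arrays 1, 2 and 4, and array 2, the next lowest, was separated from it by 0.861 of the clone's range over arrays. Among 7 groups of 4 arrays examined in this way, chance flags about 1 in 20. The cause was not tested.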

How the results depend on the processing

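No member clone passed limma's test for the drug under any alternative that gave a value, and the count of list genes that passed was 0 in each list throughout. Adjusted p ran from 0.121 (Amyrel) to 0.997. AcCoAS and Adh kept their sign in 15 of 15 alternatives. The dye coefficient, no moderation and the demand for both spots left their means as they were, so these could not turn a sign. A Cy3 numerator, which would turn every sign, was not among the alternatives. With no sign turned, AdipoR was at -0.31, Amyrel at -0.74, the apolpp clones at -0.13 and -0.05 and their average at -0.087. With no centring the first apolpp clone was at -0.17. Leaving out single arrays gave -0.49 to 0.72 for Amyrel, -0.11 to 0.18 and 0.02 to 0.19 for the apolpp clones, -0.044 to 0.13 for their average, 0.06 to 0.36 for AdipoR, 0.06 to 0.17 for AcCoAS and 0.08 to 0.41 for Adh. Amyrel and the first apolpp clone gave no value where all 4 arrays were required.

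Over all clones 14 passed for the drug (12 higher, 2 lower), against 5 (all higher) with no centring, 0 with no sign turned (86 at an unadjusted p under 0.05), 9 when centred on clones measured on all 4 arrays, 28 with a dye coefficient, 0 without moderation (105 unadjusted), 7 from the first spot alone and 5 to 23 with single arrays left out (5 without array 1, 23 without array 2, 7 without array 3). Higher and lower calls split 7 to 6 where all 4 arrays were required. The cause was not tested.

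The dye effect of Amyrel, -0.86, passed under 4 alternatives: centring on all clones (-0.80), centring on clones on all 4 arrays (-0.91), at least 2 arrays (-0.81, limma adjusted p = 0.0214) and without array 4 (-0.86, limma adjusted p = 0.00912). It did not pass under the others, among them no moderation (adjusted p = 0.761), no centring (-0.52, 0.195) and without array 2 (-0.52, 0.596). That of Adh, 0.21, was 0.46 without array 4 (limma adjusted p = 0.0405) and -0.043 without array 3. Turned signs of the dye effect were 0.14 for AdipoR and 0.18 and 0.39 for the apolpp clones with no centring. With no sign turned, the dye effect was 0.20 for AdipoR, 0.38 for Amyrel and 0.031 and 0.12 for the apolpp clones. The drug and dye coefficients change places when no sign is turned. Those values are therefore the drug coefficients of the fit with a dye term and not separate results. The dye effect of the second apolpp clone was also above 0, at 0.014, when centred on all clones. With single arrays left out, the dye effects of the apolpp clones ran from -0.26 to 0.026 and from -0.17 to 0.068. For Amyrel, leaving out array 4 changed only the other clones of the fit, since array 4 holds no Amyrel value. Each ratio pairs the ETH and NF pools of 1 array, so the test against 0 is itself paired.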
